A study of Mus musculus with 12 samples.

Results

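The 10 genes described here are candidates for a response to renal ischemia that depends on genotype: Apoc3, Prepl, Rpl27a, Mapre2, 1810014B01Rik, Ube2n, Smn1, Uspl1, Pcbp4 and Rragd, of 14322 genes measured. They were chosen by measured values of these same arrays, the smallest p-values of the genotype by ischemia interaction or changes of opposite sign in the 2 genotypes, so the responses and their differences are given below as a description and not as a test. All 10 passed the filter on low signals, and the array annotation assigns 26 probe sets to 1 of them alone. Whole kidneys of male mice, 8 weeks old, were measured on 12 Affymetrix arrays, 3 in each of 4 groups: wild-type C57BL/10 (labelled WT) ischemic and sham, and C57BL/10ScNJ (labelled TLR4-/-, here TLR4 null) ischemic and sham. Every mouse lost its right kidney under isoflurane. In the ischemic groups the left renal pedicle was clamped for 23 min, in the sham groups the clip was only laid under it, and all left kidneys were taken at 4 h of reperfusion. C57BL/10ScNJ is a substrain that lacks Tlr4 in every cell, so other differences between the substrains cannot be told apart from the loss of TLR4.

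TLR4 is a receptor of innate immunity for bacterial lipopolysaccharide that signals through the adaptor MyD88, the ubiquitin ligase TRAF6 and the kinase TAK1 to NF-kB. Ube2n encodes UBC13, the ubiquitin-conjugating enzyme that builds lysine-63-linked chains together with TRAF6, and it is the member with a textbook place in this pathway. The others work elsewhere: Apoc3 is an apolipoprotein that slows the clearance of triglyceride-rich particles, Rpl27a a protein of the large ribosomal subunit, Mapre2 (EB2) a protein of growing microtubule ends, Smn1 the core of the complex that assembles spliceosomal snRNPs, Uspl1 a SUMO isopeptidase, Pcbp4 a poly(C)-binding RNA-binding protein, Rragd a Rag GTPase that links amino acids to mTORC1 at the lysosome, and Prepl a serine hydrolase related to prolyl endopeptidase. 1810014B01Rik is listed as a transcribed pseudogene in RefSeq.

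Values are MAS5 signal intensities, and differences are on the scale of log2(signal + 15), which understates the change of dim genes. The 7 tubule markers fixed for the tissue check, among them Umod and Slc34a1, gave signals of 1160 to 21890 on all arrays. Of 4 Tlr4 probe sets 2 passed the filter, and they read 65.6 to 120.4 and 72.9 to 134.8 on the wild-type arrays and 0.901 to 3.38 and 6.33 to 60.4 on the TLR4 null arrays. Each array's log2 values correlated with those of its group mates at a mean r of 0.965 to 0.978, lowest for TLR4 null ischemic replicate 3. The 3′ control probe set of 18S rRNA read 2287, 2646 and 1410 in TLR4 null ischemic replicates 1, 2 and 3 and 303.7 to 574.1 on the other 9 arrays, and its part in the results below was not tested. In the limma fit of all 12 arrays, the interaction was called (adjusted p under 0.05) for 0 of 14322 genes, or 0%. The smallest adjusted p was 0.244, and 913 genes, or 6.37%, had an unadjusted p under 0.05. Ischemia changed 19.6% of genes in wild type (9.17% higher, 10.5% lower) and 21.6% in TLR4 null kidneys (9.86% higher, 11.7% lower).

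By rank of the interaction p, Apoc3 was 1, Prepl 3, Rpl27a 4, Mapre2 5, 1810014B01Rik 7, Ube2n 8, Pcbp4 18, Uspl1 26, Rragd 33 and Smn1 72 of 14322. The rule gives no numerical limit, and the 3 genes of smallest p outside the list were 4932431P20Rik at rank 2 (response in TLR4 null minus response in wild type 1.56 ± 0.28, estimate ± SE), AU040972 at rank 6 (-2.53 ± 0.49) and the IGF-binding protein Igfbp3 at rank 9 (-0.88 ± 0.18). Rank 72, Smn1, had 1.78 ± 0.50. In 7 members the response was more positive in TLR4 null kidneys and in 3 it was more negative. The 3 ischemic and 3 sham arrays did not overlap for 8 of 10 members in wild type (39.3% of all genes), a count that rests on the values used for the choice. In TLR4 null kidneys they did not overlap for 4 of 10, near the share over all genes (34%).

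**Figure D1:**
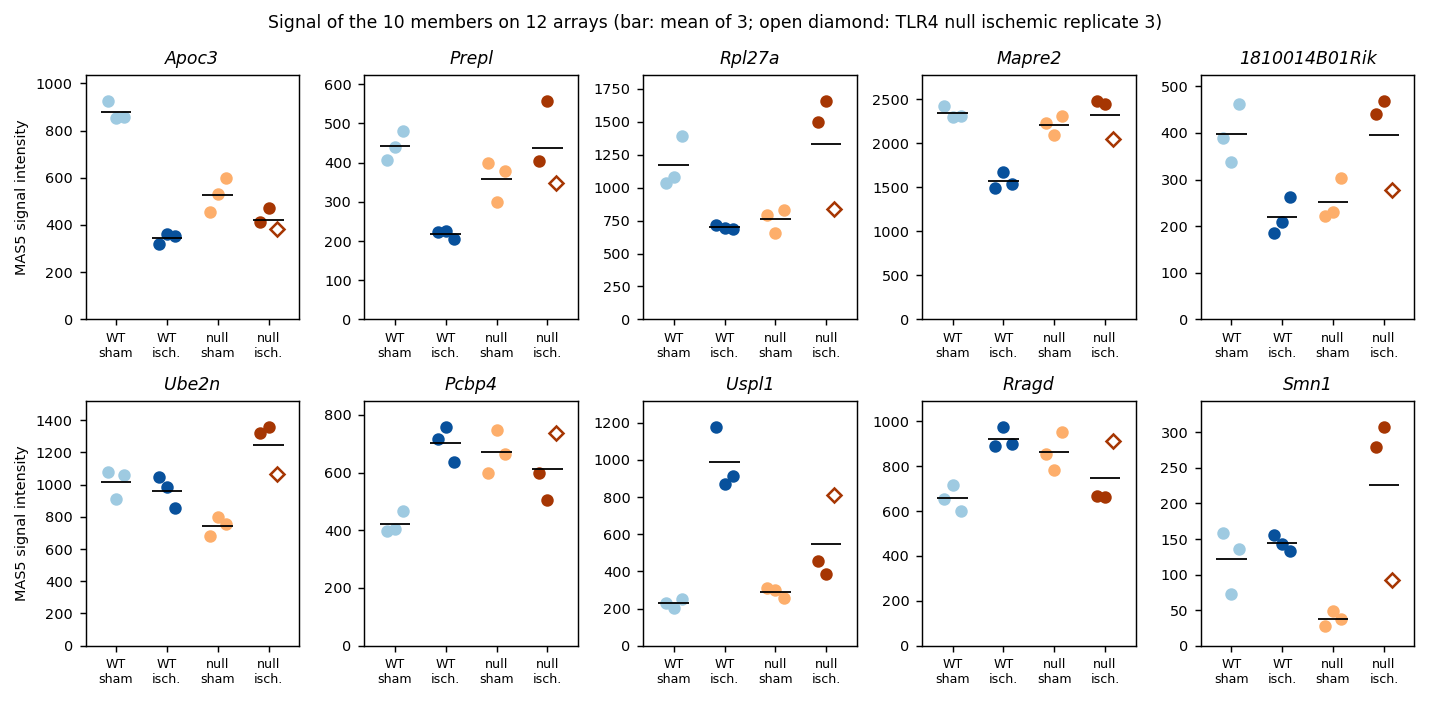
MAS5 signal intensity (vertical axes, linear from 0) of each of the 10 members on the 12 arrays, by group, with the mean of 3 arrays as a bar and TLR4 null ischemic replicate 3 as an open diamond. In the Smn1 panel that array reads 92.2 where its group mates read 279.4 and 307.5, and in the Uspl1 panel it reads 809.5 where they read 453.1 and 387.2.

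Promoter sequences for 5 of the 10 members were found in the RefSeq table (build GRCm38.p6), and 1 is shown for each of 3 among the patterns of response described below. Rpl27a was lower after ischemia in wild type and higher after ischemia in TLR4 null kidneys. Ube2n was higher after ischemia than in sham in TLR4 null kidneys, and Rragd was higher after ischemia than in sham in wild type. Each run is the 250 bases before the annotated start, 5′ to 3′, from chr7:109518945-109519194, chr10:95514912-95515161 and chr4:32982748-32982997, all on the plus strand. Capitals mark matches to 7 motifs searched on both strands.
Rpl27a: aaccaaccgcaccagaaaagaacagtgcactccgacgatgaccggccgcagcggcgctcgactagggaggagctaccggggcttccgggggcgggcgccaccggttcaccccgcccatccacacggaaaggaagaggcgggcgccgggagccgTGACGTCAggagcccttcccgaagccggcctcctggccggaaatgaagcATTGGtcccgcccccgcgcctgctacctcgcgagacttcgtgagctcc
Ube2n: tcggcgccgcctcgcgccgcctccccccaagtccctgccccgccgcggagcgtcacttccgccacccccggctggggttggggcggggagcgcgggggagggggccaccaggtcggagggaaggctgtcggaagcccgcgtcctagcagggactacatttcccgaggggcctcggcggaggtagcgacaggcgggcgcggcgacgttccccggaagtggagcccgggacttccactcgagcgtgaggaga
Rragd: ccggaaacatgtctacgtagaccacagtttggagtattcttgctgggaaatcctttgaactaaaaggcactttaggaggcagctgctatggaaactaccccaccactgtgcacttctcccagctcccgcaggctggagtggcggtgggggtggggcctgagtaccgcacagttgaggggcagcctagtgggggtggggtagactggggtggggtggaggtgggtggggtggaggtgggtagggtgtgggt

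The motifs were AP-1 (TGANTCA, in 6.75% of 32851 promoters of this length), NF-kB (1.41%), heat shock (GAANNTTC, 6.69%), antioxidant (TGACNNNGC, 10.2%), E-box (CACGTG, 6.02%), CRE (TGACGTCA, 1.55%) and CCAAT (33.8%). None overlapped another in the Rpl27a window. That window held a CRE whose match began 97 bases before the start and a CCAAT box on the reverse strand 48 bases before it. The Ube2n and Rragd windows held no match to any of the 7, which says only that these letters are not in these 250 bases. Among the windows not shown, a Smn1 window held a CCAAT box, and the other Smn1 window and both Prepl windows held no match. In all, 7 windows of 5 members were searched, and the Rpl27a window was the only one with a CRE.

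Apoc3 had the largest fall among members in wild type and the smallest interaction p of all genes. Its signal was 926.4, 852.8 and 857.2 in wild-type sham kidneys, 321.1, 362.6 and 352.8 in wild-type ischemic, 455.7, 532.1 and 598.5 in TLR4 null sham, and 410.7, 470.2 and 381.5 in TLR4 null ischemic kidneys. The wild-type sham arrays stood above all others, the wild-type ischemic arrays were the lowest of the 4 groups, and the TLR4 null groups overlapped between them. Ischemic minus sham was -1.31 ± 0.11 in wild type and -0.32 ± 0.11 in TLR4 null kidneys, and the difference of the responses was 0.99 ± 0.16. Most of that difference lay in the sham kidneys, where TLR4 null minus wild type was -0.72 ± 0.11, against 0.27 ± 0.11 in ischemic kidneys. The array carries 1 probe set for this gene.

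Apoc3 is made mainly in liver and intestine, so hepatocyte markers were set beside it. The mean log2 value of the 5 measured hepatocyte markers was 8.47 to 8.58 in wild-type sham, 8.68 to 8.80 in wild-type ischemic, 7.88 to 8.30 in TLR4 null sham and 8.49 to 8.66 in TLR4 null ischemic kidneys. Like Apoc3 this mean was lower in TLR4 null than in wild-type sham kidneys, and unlike Apoc3 it was higher after ischemia in both genotypes. The differences of responses of the 5 markers ran from -0.24 to 0.77, with a median of 0.27, where Apoc3 had 0.99. The genotype difference averaged over both surgeries was called in limma for 1 of the 5 (2.1% of all genes). Of the 5 markers, 1 passed as higher in wild type (9.17% of all genes) and 2 in TLR4 null kidneys (9.86%), and 0 as lower. Apoa2, a marker named after its values were seen, went the other way from the mean. Its response was -0.48 ± 0.19 in wild type and -0.21 ± 0.19 in TLR4 null kidneys, and it passed in neither. The part of hepatocyte RNA in the Apoc3 values was not tested. Fgb and Serpina1a of this list did not pass the filter.

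Prepl read 406.6, 441.2 and 480.4 in wild-type sham and 223.5, 225.8 and 205.4 in wild-type ischemic kidneys. In TLR4 null kidneys it read 397.9, 300.3 and 379.1 in sham and 405.1, 558.0 and 348.0 in ischemic kidneys. The 3 wild-type ischemic arrays lay below the other 9, and among those the TLR4 null sham arrays lay below the wild-type sham arrays while the TLR4 null ischemic arrays overlapped both. The response was -0.97 ± 0.16 in wild type and 0.26 ± 0.16 in TLR4 null kidneys, a difference of 1.23 ± 0.22, and here the genotypes differed mainly in ischemic kidneys (0.93 ± 0.16).

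Mapre2 showed the same order with a narrower spread. It read 2420.4, 2299.9 and 2311.5 in wild-type sham, 1488.1, 1670.3 and 1540.0 in wild-type ischemic, 2227.2, 2092.6 and 2310.5 in TLR4 null sham and 2481.1, 2441.2 and 2041.7 in TLR4 null ischemic kidneys. Again only the wild-type ischemic arrays stood apart, below the other 9. Its response was -0.58 ± 0.09 in wild type and 0.07 ± 0.09 in TLR4 null kidneys, a difference of 0.64 ± 0.12.

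Rpl27a was the 1 member whose ischemic and sham arrays did not overlap in either genotype, in opposite directions, a pattern that 32 genes (0.223%) had. It read 1038.9, 1077.7 and 1393.7 in wild-type sham and 716.6, 691.3 and 687.7 in wild-type ischemic kidneys, and 795.3, 659.4 and 833.5 in TLR4 null sham and 1497.1, 1659.5 and 839.5 in TLR4 null ischemic kidneys. The third TLR4 null ischemic array was above the highest sham array of its genotype by only 839.5 to 833.5. Wild-type ischemic and TLR4 null sham arrays overlapped at the low end, and wild-type sham and TLR4 null ischemic arrays overlapped at the high end. The response was -0.72 ± 0.19 in wild type and 0.74 ± 0.19 in TLR4 null kidneys, a difference of 1.46 ± 0.27.

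1810014B01Rik followed Rpl27a, with 389.2, 338.0 and 463.0 in wild-type sham, 184.8, 209.5 and 263.5 in wild-type ischemic, 222.0, 231.1 and 304.4 in TLR4 null sham and 441.3, 469.1 and 278.6 in TLR4 null ischemic kidneys. Every neighbouring pair in the order of its group means overlapped, and the wild-type groups did not overlap with each other. The response was -0.82 ± 0.19 in wild type and 0.60 ± 0.19 in TLR4 null kidneys.

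Ube2n and Smn1 had similar levels in both wild-type groups and differed between the TLR4 null groups. Ube2n read 1078.1, 911.4 and 1058.4 in wild-type sham, 1044.8, 984.5 and 854.0 in wild-type ischemic, 681.4, 797.1 and 758.2 in TLR4 null sham and 1323.2, 1357.8 and 1064.7 in TLR4 null ischemic kidneys. The TLR4 null sham arrays lay below the other 9 and the TLR4 null ischemic arrays reached above them, with 1 of the 3 within the wild-type range. The response was -0.08 ± 0.11 in wild type and 0.73 ± 0.11 in TLR4 null kidneys, a difference of 0.81 ± 0.16. The genotypes differed in both surgeries and in opposite directions, by -0.44 ± 0.11 in sham and 0.37 ± 0.11 in ischemic kidneys.

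Smn1 was the dimmest member, with 10 of 12 arrays over the threshold of the filter, and the arrays under it were TLR4 null sham arrays. It read 158.1, 73.2 and 136.3 in wild-type sham, 155.8, 142.5 and 133.7 in wild-type ischemic, 28.0, 48.8 and 37.5 in TLR4 null sham and 279.4, 307.5 and 92.2 in TLR4 null ischemic kidneys. The TLR4 null sham arrays were below all others, while the TLR4 null ischemic arrays had 1 value within the wild-type range and the others above it. The response was 0.26 ± 0.35 in wild type and 2.05 ± 0.35 in TLR4 null kidneys, and the sham kidneys of the genotypes differed by -1.33 ± 0.35.

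Uspl1, Pcbp4 and Rragd were higher after ischemia in wild type. Uspl1 had the largest wild-type response among the members, from 230.9, 202.0 and 249.5 in sham to 1176.6, 871.9 and 914.1 in ischemic wild-type kidneys. In TLR4 null kidneys it went from 312.1, 301.1 and 255.8 to 453.1, 387.2 and 809.5. Its groups were in the order wild-type sham, TLR4 null sham, TLR4 null ischemic and wild-type ischemic, with no overlap between neighbours. The response was 2.04 ± 0.21 in wild type and 0.82 ± 0.21 in TLR4 null kidneys, so Uspl1 was higher after ischemia in both, and the difference was -1.22 ± 0.29.

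Pcbp4 read 396.1, 403.9 and 468.6 in wild-type sham and 715.9, 757.9 and 635.3 in wild-type ischemic kidneys, against 597.7, 748.2 and 663.9 in TLR4 null sham and 599.0, 505.8 and 737.2 in TLR4 null ischemic kidneys. Only the wild-type sham arrays stood apart, below the other 9. Its response was 0.71 ± 0.13 in wild type and -0.13 ± 0.13 in TLR4 null kidneys, and the genotypes differed by 0.64 ± 0.13 in sham kidneys. Rragd had the same order of groups as Pcbp4, with 655.0, 717.0 and 600.1 in wild-type sham, 891.9, 974.3 and 899.2 in wild-type ischemic, 854.3, 784.9 and 950.8 in TLR4 null sham and 669.0, 662.6 and 910.7 in TLR4 null ischemic kidneys. Wild-type sham and TLR4 null ischemic arrays overlapped, as did the 2 higher groups. The response of Rragd was 0.48 ± 0.12 in wild type and -0.22 ± 0.12 in TLR4 null kidneys.

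**Figure D2:**
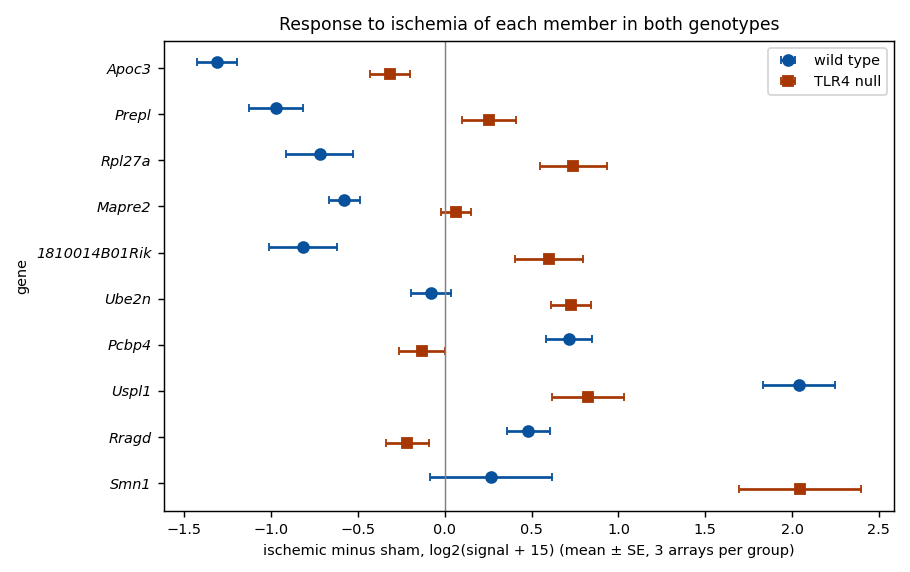
Ischemic minus sham on the log2(signal + 15) scale (horizontal axis, mean ± SE, 3 arrays per group) for each member, with circles for wild type and squares for TLR4 null. Apoc3, Prepl, Rpl27a, Mapre2 and 1810014B01Rik are negative in wild type, and Ube2n is slightly below 0 there at -0.08 ± 0.11. Uspl1 has the largest wild-type response at 2.04, and Smn1 the largest TLR4 null response at 2.05.

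Across members, the sham arrays of the genotypes did not overlap for 9 of 10 (16.7% of all genes), all but Mapre2, with 6 lower and 3 higher in TLR4 null kidneys. The ischemic arrays of the genotypes did not overlap for 7 of 10 (14.7% of all genes), all but Pcbp4, Rragd and Smn1, with 6 higher and Uspl1 lower in TLR4 null kidneys. These counts rest on the groups that chose the members and are a description, and whether a difference of responses lies more in sham or in ischemic kidneys was not tested.

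Over the 12 arrays, Ube2n correlated most closely with Smn1 (r = 0.93), Prepl with Mapre2 (r = 0.93) and Rpl27a with 1810014B01Rik (r = 0.93), and Pcbp4 with Rragd at r = 0.78. The lowest correlations were those of Uspl1 with Apoc3 (r = -0.89) and Mapre2 (r = -0.84). The points share arrays and groups, and the members were chosen for group differences, so these correlations are a description. Among all genes, Rpl27a was most like 4932431P20Rik (r = 0.93), which read 327.1, 311.8 and 343.9 in wild-type sham, 196.1, 190.2 and 152.2 in wild-type ischemic, 171.2, 139.2 and 206.8 in TLR4 null sham and 337.9, 367.5 and 202.1 in TLR4 null ischemic kidneys. This RIKEN transcript shares the pattern of Rpl27a, including the low value of TLR4 null ischemic replicate 3. Uspl1 was most like the zinc finger protein gene Zbtb11 and the histone demethylase gene Kdm6b (both r = 0.98), Ube2n like Usp39 (r = 0.95) and Snx24 (r = 0.94), and Smn1 like the Ran-binding protein gene Ranbp1 (r = 0.95).

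Apoc3 was most like Dnajb14 and Asb11 (both r = 0.94), Prepl like Tusc3 (r = 0.94), Mapre2 like Ift140 (r = 0.93), 1810014B01Rik like Frg1 after Rpl27a (r = 0.92), Pcbp4 like Pdzrn3 (r = 0.92) and Mast2 (r = 0.89), and Rragd like Itgax (r = 0.85) and Poli (r = 0.84). Of the genes alike to Ube2n, Usp39 had a response of -0.03 in wild type and 0.55 in TLR4 null kidneys. Kdm6b, alike to Uspl1, had 1.19 and 0.56.

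TLR4 null ischemic replicate 3 stood apart from its group mates in most members. For 8 of 10 members, all but Prepl and Mapre2, that array was nearer to the mean of the wild-type ischemic arrays than to the mean of its 2 group mates. Over all 14322 genes this held for 54.2% on that array, and for 42.8% to 52% on the other 11 when each was set against its own mates and the other genotype's group of the same surgery. On those 11 arrays between 0 and 3 members were nearer to the other genotype. The array also had the highest actin 3′ to 5′ ratio of its group (2.01, against 1.73 and 1.83) and the lowest 18S control signal (1410). The part of these measures in the members' values was not tested.

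When that array was left out, 15 of 14322 genes (0.105%) passed the interaction in limma at an adjusted p under 0.05, and all 10 members were among them. The array was singled out after its values were seen, and the contrast is the one that chose the members, so this count is no separate evidence about them. Every member's difference was larger in size without it: Smn1 went from 1.78 ± 0.50 to 2.29 ± 0.35, Rpl27a from 1.46 ± 0.27 to 1.76 ± 0.17 and Uspl1 from -1.22 ± 0.29 to -1.53 ± 0.20. The other 5 genes were the AP-1 subunit gene Jun (-1.52 ± 0.26 without the array and -0.95 ± 0.48 with it), Nmrk1 (-1.34 ± 0.23), the chemokine scavenger receptor gene Ackr4 (1.47 ± 0.26), 4932431P20Rik (1.81 ± 0.22) and Gm6787 (1.71 ± 0.28), named after their values were seen. Jun read 4685.8, 2522.2 and 11179.6 in TLR4 null ischemic kidneys and 7832.6 to 10097.1 in wild-type ischemic kidneys, so on the third array it was above all wild-type ischemic arrays. Leaving out any 1 of the other 11 arrays gave 0 interaction calls.

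**Figure D3:**
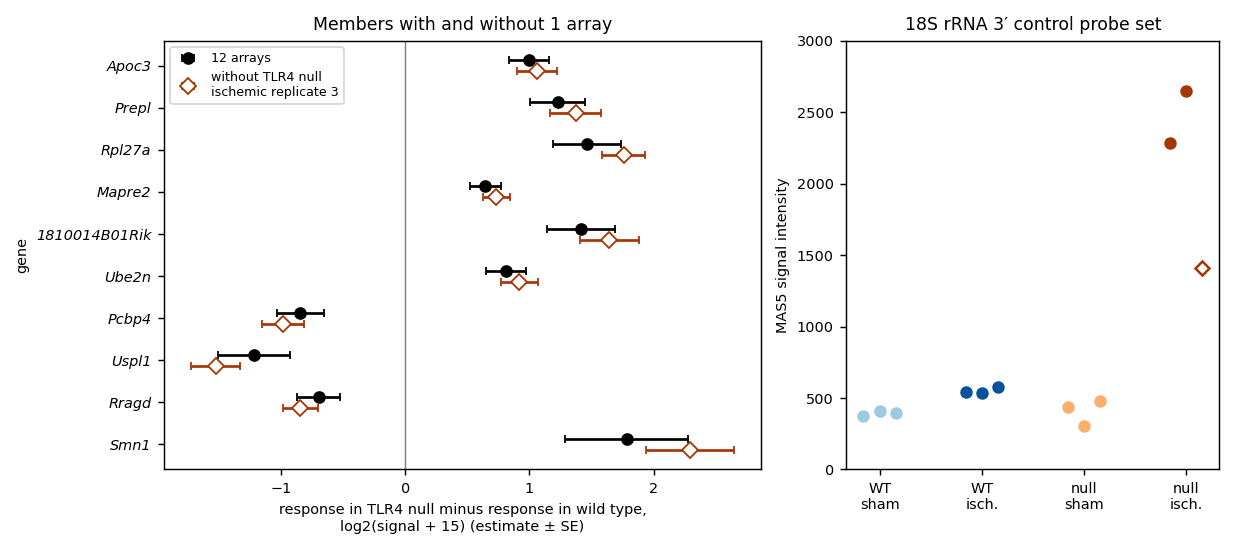
Left, the response in TLR4 null minus the response in wild type on the log2(signal + 15) scale (estimate ± SE) for each member, from 12 arrays (filled circles) and without TLR4 null ischemic replicate 3 (open diamonds). Right, the signal of the 18S rRNA 3′ control probe set on each array, linear from 0, where the 3 TLR4 null ischemic arrays read 1410 to 2646 and that array is the open diamond.

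The mean difference between the genotypes, averaged over sham and ischemic kidneys, is not the contrast that chose the members and was tested. None of the 10 members passed it in limma with Benjamini-Hochberg adjustment over 14322 genes, where 2.1% of genes did (301). Mapre2 came closest, at 0.24 ± 0.06 higher in TLR4 null kidneys (limma adjusted p = 0.0652), followed by Prepl at 0.32 ± 0.11 (adjusted p = 0.187) and Apoc3 at -0.23 ± 0.08 (adjusted p = 0.205). Ube2n (-0.03 ± 0.08, adjusted p = 0.911) and Rragd (0.04 ± 0.09, adjusted p = 0.911) had the smallest averages. This test shares its estimate of the spread with the contrast that chose the members, which favours genes of small spread. Without TLR4 null ischemic replicate 3, Mapre2 (0.28 ± 0.06, limma adjusted p = 0.0145) and Uspl1 (-0.43 ± 0.10, adjusted p = 0.0338) passed, as did 2.59% of all genes (371). That array was singled out after its values were seen, and with unequal groups the average is no longer independent of the contrast that chose the members, so these calls are no separate evidence.

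Other probe sets of the same genes that passed the filter did not repeat the differences at their size. Of the 26 probe sets, 10 stood for their genes by having the highest mean, 12 others passed the filter, in 6 genes, and 4 did not pass. The 12 others had differences of responses between 0.02 and 0.81 in size (median 0.17, against 1.11 for the 10 used), 6 with the sign of the probe set used and 6 with the other sign. All 12 lay within 2 SE of 0, and none with the same sign reached 0.5 of the difference of the probe set used. Some of the 12 were dim and had wide SE. A Mapre2 probe set (25.8 to 106) and a 1810014B01Rik probe set (14.2 to 64.8) were each over the threshold on only 6 of 12 arrays. The 10 were chosen for their differences and the 12 were not, so the gap in size was not tested. Different probe sets can detect different transcripts of a gene, and which transcripts these detect was not determined here.

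Mapre2 is the clearest case, with 5 probe sets that passed. The one used gave the difference of 0.64 ± 0.12 above, while a second read 821.3 to 896.2 in wild-type sham and 889.9 to 946.6 in wild-type ischemic kidneys, with a response of 0.11 ± 0.08 and a difference of -0.06 ± 0.12. Another was lower after ischemia in both genotypes, from 123.7, 153.2 and 152.8 to 72.1, 74.4 and 120.9 in wild type (-0.63 ± 0.22) and from 156.7, 161.7 and 134.3 to 76.9, 91.2 and 51.1 in TLR4 null kidneys (-0.94 ± 0.22). The remaining probe sets had differences of -0.05 ± 0.22 and -0.81 ± 0.46. With all 5 averaged, the Mapre2 difference was -0.12 ± 0.15, the opposite sign.

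For Prepl the other 2 probe sets had differences of 0.37 ± 0.20 and 0.26 ± 0.25, in the direction of the one used (1.23 ± 0.22). The second Ube2n probe set read 67.7 to 142.0 on the 12 arrays, with a response of -0.07 ± 0.23 in TLR4 null kidneys and a difference of 0.12 ± 0.33. The other Pcbp4 probe sets had differences of -0.09 ± 0.25 and -0.02 ± 0.21, and the first of these was higher after ischemia by 0.50 ± 0.18 in wild type and 0.41 ± 0.18 in TLR4 null kidneys. For Rragd the second probe set gave 0.20 ± 0.42, and for 1810014B01Rik the others gave 0.13 ± 0.49 and -0.66 ± 0.48. Apoc3, Uspl1 and Smn1 each have 1 probe set, so no second measure of them exists on the array.

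The second Rpl27a probe set was too dim for the filter, at 9.54 to 41.6, with 0 of 12 arrays over the threshold. Its group means were 35.6 in wild-type sham, 15.9 in wild-type ischemic, 12.3 in TLR4 null sham and 19.2 in TLR4 null ischemic kidneys. These run in the directions of the probe set used, though the TLR4 null groups overlapped. Another probe set is annotated to 5 genes, of which Rpl27a is 1, and so names no single gene. It read 6726.5, 7531.6 and 7257.2 in wild-type sham, 8353.2, 8382.0 and 8059.9 in wild-type ischemic, 7235.9, 7813.6 and 7205.4 in TLR4 null sham and 6894.5, 7515.4 and 8053.5 in TLR4 null ischemic kidneys. Its response was 0.21 ± 0.08 in wild type and 0.01 ± 0.08 in TLR4 null kidneys, opposite in sign to the Rpl27a probe set in wild type. A further probe set is annotated to 2 genes, of which 1810014B01Rik is 1, and it read 451.2 to 633.7 on the 12 arrays. Its response was -0.09 ± 0.13 in wild type and -0.12 ± 0.13 in TLR4 null kidneys, a difference of -0.02 ± 0.18. Ribosomal protein genes have near-identical copies in the genome, so which copy a probe set detects is uncertain.

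**Figure D4:**
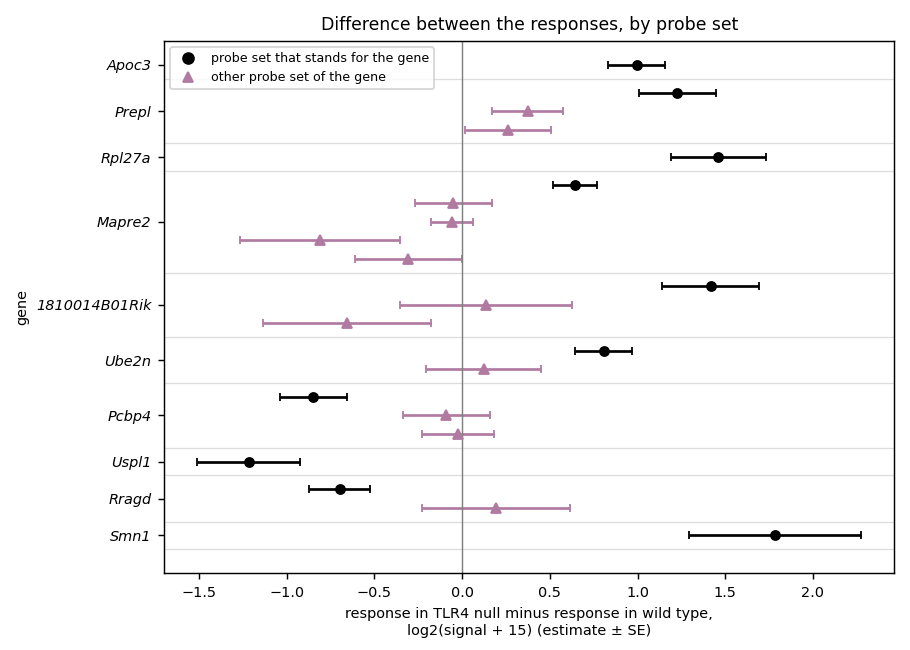
Response in TLR4 null minus response in wild type on the log2(signal + 15) scale (horizontal axis, estimate ± SE) for the 22 probe sets of the members that passed the filter, with black circles for the brightest probe set of each gene, used above, and triangles for the others. The 12 triangles lie between -0.81 and 0.37.

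Partners of the members were taken from 9 lists, and the interaction was called in limma for 0 of them, as for all genes. Of 17 genes of K63 ubiquitin chains and TRAF6 signalling, the setting of Ube2n, 4 passed in wild type and 3 in TLR4 null kidneys. These counts are near the shares over all genes, 19.6% and 21.6%. The deubiquitinase gene Cyld rose in both (0.48 ± 0.10 and 0.52 ± 0.10) and Hltf, a ubiquitin ligase of DNA damage tolerance, fell in both (-0.39 ± 0.11 and -0.61 ± 0.11). Named after their values were seen, Rnf168 and the TAK1-binding Tab1 fell in wild type, and the TLR adaptor kinase gene Irak1 fell in TLR4 null kidneys (-0.81 ± 0.25, and 0.17 ± 0.25 in wild type). The median of the list was -0.03 in wild type and 0.04 in TLR4 null kidneys, against -0.09 and -0.07 over all genes.

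Of 14 apolipoprotein and triglyceride clearance genes other than Apoc3, 5 fell in wild type (10.5% of all genes) and 3 in TLR4 null kidneys (11.7%). The median of the list was -0.42 in wild type and -0.26 in TLR4 null kidneys. Angptl4, an inhibitor of lipoprotein lipase (-0.70 ± 0.09 in wild type and -0.78 ± 0.09 in TLR4 null kidneys), Apoh (-1.15 ± 0.14 and -0.73 ± 0.14) and Apom (-0.52 ± 0.11 and -0.47 ± 0.11) fell in both. The 2 others in wild type, named after their values were seen, were Apob (-0.51 ± 0.13) and Apoa4 (-0.99 ± 0.17). Apoa4 lies next to Apoc3 in the genome and read 433.0, 367.1 and 335.2 in wild-type sham, 207.3, 184.8 and 156.3 in wild-type ischemic, 213.2, 317.4 and 263.1 in TLR4 null sham and 238.8, 253.6 and 175.0 in TLR4 null ischemic kidneys. As in Apoc3, the wild-type sham arrays were the highest and the TLR4 null groups overlapped, with a difference of responses of 0.76 ± 0.24. The neighbour on the other side, Apoa1, had 0.31 ± 0.52 and was dim, at 11.5 to 75.6 on the 12 arrays.

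Over the 14 measured neighbours the differences of responses ran from -0.29 to 0.76, with Apoa4 the highest. Slc3a1, a subunit of the renal cystine transporter whose gene overlaps Prepl, fell in wild type (-0.38 ± 0.10) and TLR4 null kidneys (-0.37 ± 0.10, limma adjusted p = 0.0118 and 0.0132), a difference of 0.01 ± 0.14. Its light chain partner Slc7a9 fell in TLR4 null kidneys (-0.42 ± 0.09) and was at -0.17 ± 0.09 in wild type. In all, 1 of 8 genes of the Prepl list passed in wild type (19.6% of all genes) and 2 in TLR4 null kidneys (21.6%). The neighbours of Ube2n, Mrpl42 and Nudt4, had differences of -0.01 ± 0.12 and -0.06 ± 0.11.

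Over all genes, 10.5% fell and 9.17% rose in wild type, and 11.7% fell and 9.86% rose in TLR4 null kidneys. Of 17 genes around the Rag GTPases, 4 fell in wild type, while 3 fell and 3 rose in TLR4 null kidneys. The kinase gene Mtor (-0.91 ± 0.09 in wild type and -0.70 ± 0.09 in TLR4 null kidneys), the lysosomal amino acid sensor Slc38a9 (-0.69 ± 0.18 and -0.58 ± 0.18) and the Ragulator subunit Lamtor2 (-0.31 ± 0.09 in both) fell. Rptor also fell in wild type, and Rragc (0.32 ± 0.10), the paralog of Rragd, Tfe3 and Fnip2 rose in TLR4 null kidneys, all named after their values were seen. Of 14 SUMO cycle genes, 3 rose and 1 fell in wild type and 4 rose and 1 fell in TLR4 null kidneys. Desi2 (0.84 ± 0.13 and 0.72 ± 0.13), Senp6 and Senp2 rose in both, the SUMO protease Senp7 fell in both, and Senp5 rose in TLR4 null kidneys (0.53 ± 0.12, against -0.02 ± 0.12 in wild type), the last 2 named after their values were seen.

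Of 21 measured genes of the large ribosomal subunit, Rpl12 (0.96 ± 0.18 and 0.89 ± 0.18) rose in both genotypes and Rpl10a (0.32 ± 0.08) in wild type. None of the 21 fell, while Rpl27a was lower in wild type. Over all genes, 9.17% rose in wild type and 9.86% in TLR4 null kidneys. Rpl12 was dim, at means of 108.3 in wild-type and 105.6 in TLR4 null sham kidneys, where Rpl10a read 6941 and 7372. The median response of the 21 was 0.10 in wild type and 0.03 in TLR4 null kidneys. Of 14 microtubule plus-end genes, Mapre1 (EB1), a relative of Mapre2, rose in both (0.31 ± 0.08 and 0.35 ± 0.08), Slain2 fell in both (-0.64 ± 0.07 and -0.61 ± 0.07) and Clip1, named after its value was seen, fell in wild type. Pcbp1, 1 of 4 genes of poly(C)-binding proteins measured beside Pcbp4, rose in both (0.38 ± 0.09 and 0.44 ± 0.09). Strap, 1 of 12 genes of the SMN complex and Sm proteins, also rose in both (0.57 ± 0.09 and 0.40 ± 0.09).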

How the data were processed

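Per the submitters' processing notes, the authors made the deposited signal intensity values with MAS5, with version and scaling target not given in the sources used here. Every array has the same mean of 250 after trimming 2% of values at each end. Labels gave the groups. Values were taken as log2(signal + 15). Probe sets over their array's 40th percentile in at least 3 arrays were kept (30326). The platform annotation gives 1 gene for 34958 probe sets of the whole array, before this filter, and symbols were updated by Entrez ID. Among kept probe sets with 1 gene, the probe set with the highest mean stood for a gene (14322 genes). limma 3.58.1 in R 4.3.3 (lmFit, eBayes with trend) fitted 4 group means to 12 arrays, with 8 residual degrees of freedom. p-values were two-sided and corrected with the Benjamini-Hochberg method across the 14322 genes. Member probe sets were fitted with all 30326. The interaction step was tested on simulated data. Promoters were searched with Python 3.11.15. Members, 9 partner lists and 9 marker lists were chosen with earlier results of these data known. Genes named were the members, Tlr4, the 2 genes most alike to each member, the 3 smallest interaction p outside the list and up to 3 partners per list with the smallest p of the average response, and Slc3a1. The other genes beside members (Apoa1, Mrpl42, Nudt4) and the genes marked in the text were named after their values were seen. The number of arrays, 3 per group, limits precision, and the labels call them biological replicates. Fewer cells of a type and less RNA per cell cannot be told apart in whole kidneys.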

Additional observations from a re-analysis of the deposited data

Results flagged for a closer look

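Rpl27a was singled out because its 3 ischemic arrays lay below its 3 sham arrays in wild type and above them in TLR4 null kidneys. The difference of its responses was 1.46 on the log2 scale. That difference did not pass a test over all genes, and Rpl27a was chosen for this list by such differences, so it has no test of its own here.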

How the results depend on the processing

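Alternatives changed the scaling (quantile, median), the pseudocount (1 or 60), the filter (none, or the 60th percentile), the probe sets (averaged per gene), the variance trend (none) and the replicate block, or left out each array. Interaction calls numbered 0 under all of them except without TLR4 null ischemic replicate 3, a range of 0 to 15 with 1 array left out. The genotype average had 301 calls, 186 under median scaling, 107 with no trend and 138 to 371 with 1 array left out, with 155 without wild-type ischemic replicate 3, 138 without wild-type sham replicate 2, and 178 and 190 without TLR4 null sham replicates 2 and 3. Wild-type calls for ischemia numbered 1955 to 3089, those of TLR4 null kidneys 2212 to 3175. With probe sets averaged, the Mapre2 difference of responses reversed to -0.116 and the Ube2n genotype average to 0.124. With 1 array left out, the genotype average ran from -0.0751 to 0.0203 for Ube2n and from -0.0373 to 0.0752 for Rragd, and changed sign in both without TLR4 null ischemic replicate 3. Averaging also moved the differences of responses of 1810014B01Rik from 1.42 to 0.298, Rragd from -0.696 to -0.25, Pcbp4 from -0.847 to -0.32, Prepl from 1.23 to 0.621 and Ube2n from 0.807 to 0.465, and a pseudocount of 60 moved Smn1 from 1.78 to 1.26. Of 210 values of the members' differences of responses, 209 kept their sign. The alternatives refit arrays that chose the members, and only averaging brought in their other probe sets, so this count is no separate evidence about them. Same-numbered samples did not deviate together (r = -0.06 to 0.10 over 18 pairs), and the replicate block gave 0 interaction and 257 genotype calls and changed no member's call on the genotype average. Smn1 is the member nearest the dim end of the array.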
